A study of Mus musculus with 2 samples.

Results

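Semaphorins, their plexin receptors and the neuropilin coreceptors were followed across the cell classes of mouse brown adipose tissue in 2 single-nucleus RNA libraries. The genes were all those whose symbol starts with Sema and a digit or with Plxn, together with Nrp1 and Nrp2, and 31 of the 22620 listed genes met this description. A gene was kept when it had at least 20 unique molecular identifiers (UMIs, counted RNA molecules) over both libraries, which left 30. These were 7 secreted semaphorins, 11 of 12 transmembrane semaphorins, the single GPI-anchored Sema7a, 9 plexins and 2 neuropilins. Plxnb3, with 28 UMIs, was the lowest gene kept, and Sema4f, with 11 UMIs, was the gene left out. The tissue came from mice of 4 weeks. One library carried the genotype label Flox, and the other the label KO, which the series design describes as Nfe2l1(f)-KO. Nfe2l1 encodes NRF1, a transcription factor anchored in the endoplasmic reticulum that drives proteasome genes. The Cre driver, the deleted part of Nfe2l1 and the number of mice behind each library are missing from the labels. Since each genotype had 1 library and nuclei are no replicates, the genotypes were set side by side without a test, and every interval is a 95% interval for counting error only.

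Semaphorins carry a sema domain and steer the movement and attachment of axons, vessels and immune cells. Most secreted semaphorins bind a neuropilin, which holds the ligand in a complex with a plexin, whereas transmembrane semaphorins and the secreted Sema3e bind plexins directly. The cytoplasmic part of a plexin acts on small GTPases and through them on integrins and the cytoskeleton. Neuropilins also serve as coreceptors of vascular endothelial growth factor, so the family links nerve guidance to the growth of capillaries, both of which are dense in brown fat.

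The Flox library held 13986 nuclei after filtering (median 2254 UMIs) and the KO library 11570 (median 2642). Nuclei were grouped without the 30 genes, and each class was named "-like" from marker RNA. Adipocyte-like nuclei numbered 8895 in Flox and 8243 in KO, fibroblast/progenitor-like 2058 and 1420, endothelial-like 1544 and 982, macrophage/monocyte-like 602 and 417, pericyte/smooth muscle-like 345 and 219, and skeletal muscle-like 298 and 73. T/NK-like nuclei numbered 105 and 119, and Schwann-like nuclei 84 and 49. Among kept nuclei, 50 barcodes occurred in both libraries. Cidea, a lipid droplet protein typical of brown adipocytes, stood at 1245 and 1346 CPM (UMIs per 1000000 UMIs of the class) in adipocyte-like nuclei, above the other classes. Ucp1, the uncoupling protein that defines brown fat, was low there, at 35.1 and 31.4 CPM, and endothelial-like nuclei had 44.3 and 17.2. Nfe2l1 itself went against the label: adipocyte-like nuclei had 131 CPM in the library labelled Flox and 313 in the library labelled KO. Values lay closer together in fibroblast/progenitor-like (63.5 and 68.2), endothelial-like (107.5 and 125), pericyte/smooth muscle-like (75.7 and 78.4) and macrophage/monocyte-like nuclei (58.7 and 72.4). T/NK-like nuclei had 59.9 and 165, from 14 and 40 UMIs. The cause was not tested. Directions below therefore refer to the labels of the libraries.

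Promoter sequence was available from RefSeq (GRCm38.p6) for 25 of the 30 genes. The 120 bases upstream of 3 genes are shown because much of the text below turns on them, Sema3g and Sema7a in endothelial-like nuclei and Sema3e in progenitor-like nuclei. All are on the plus strand and are written 5′ to 3′, and capitals mark GGAAG or its reverse complement CTTCC, the core bound by ETS factors.
Sema3g, chr14:31217740-31217859: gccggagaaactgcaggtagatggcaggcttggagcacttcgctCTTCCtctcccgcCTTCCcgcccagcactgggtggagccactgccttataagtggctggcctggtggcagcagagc
Sema7a, chr9:57939992-57940111: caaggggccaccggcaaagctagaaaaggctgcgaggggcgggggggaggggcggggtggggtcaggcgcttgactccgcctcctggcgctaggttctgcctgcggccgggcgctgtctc
Sema3e, chr5:14025156-14025275: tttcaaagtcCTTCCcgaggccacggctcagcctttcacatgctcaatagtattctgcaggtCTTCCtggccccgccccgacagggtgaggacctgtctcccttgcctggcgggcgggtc
The Sema3g and Sema3e windows each held the core 2 times, and the Sema7a window held none. A window of this length held the core in 41.0% of all 32851 RefSeq promoters. Of the 5 genes led by endothelial-like nuclei that had a promoter in the table, 2 held it, Sema3g and Sema6b. The G and C content was 63.3% for Sema3g, 72.5% for Sema7a and 61.7% for Sema3e, against a median of 54.2% over all promoters. A match describes the letters only.

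The family was distributed over all 8 classes, and 23 of the 30 genes had their highest CPM in the same class in both libraries. Endothelial-like nuclei led for 8 genes (Sema3f, Sema3g, Sema6a, Sema6b, Sema7a, Plxna2, Plxna4, Nrp2), and fibroblast/progenitor-like nuclei for 4 (Sema3a, Sema3c, Sema3d, Sema3e). Schwann-like nuclei led for 4 (Sema3b, Sema4c, Sema6d, Plxnb3) and macrophage/monocyte-like nuclei for 3 (Sema4a, Plxnb2, Plxnc1). Sema4b was led by adipocyte-like, Sema5a by pericyte/smooth muscle-like, Sema4d by T/NK-like and Sema6c by skeletal muscle-like nuclei. For 12 genes the Poisson intervals of the first and second class were apart in both libraries. The leading class held under 50 UMIs for 6 genes (Sema3b, Sema4c, Sema5b, Plxna3, Plxnb1, Plxnb3), and their order of classes is not read further. The leading class differed between libraries for 7 genes, among them Nrp1, Plxna1 and Plxnd1, whose top classes lay within their intervals.

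**Figure D1:**
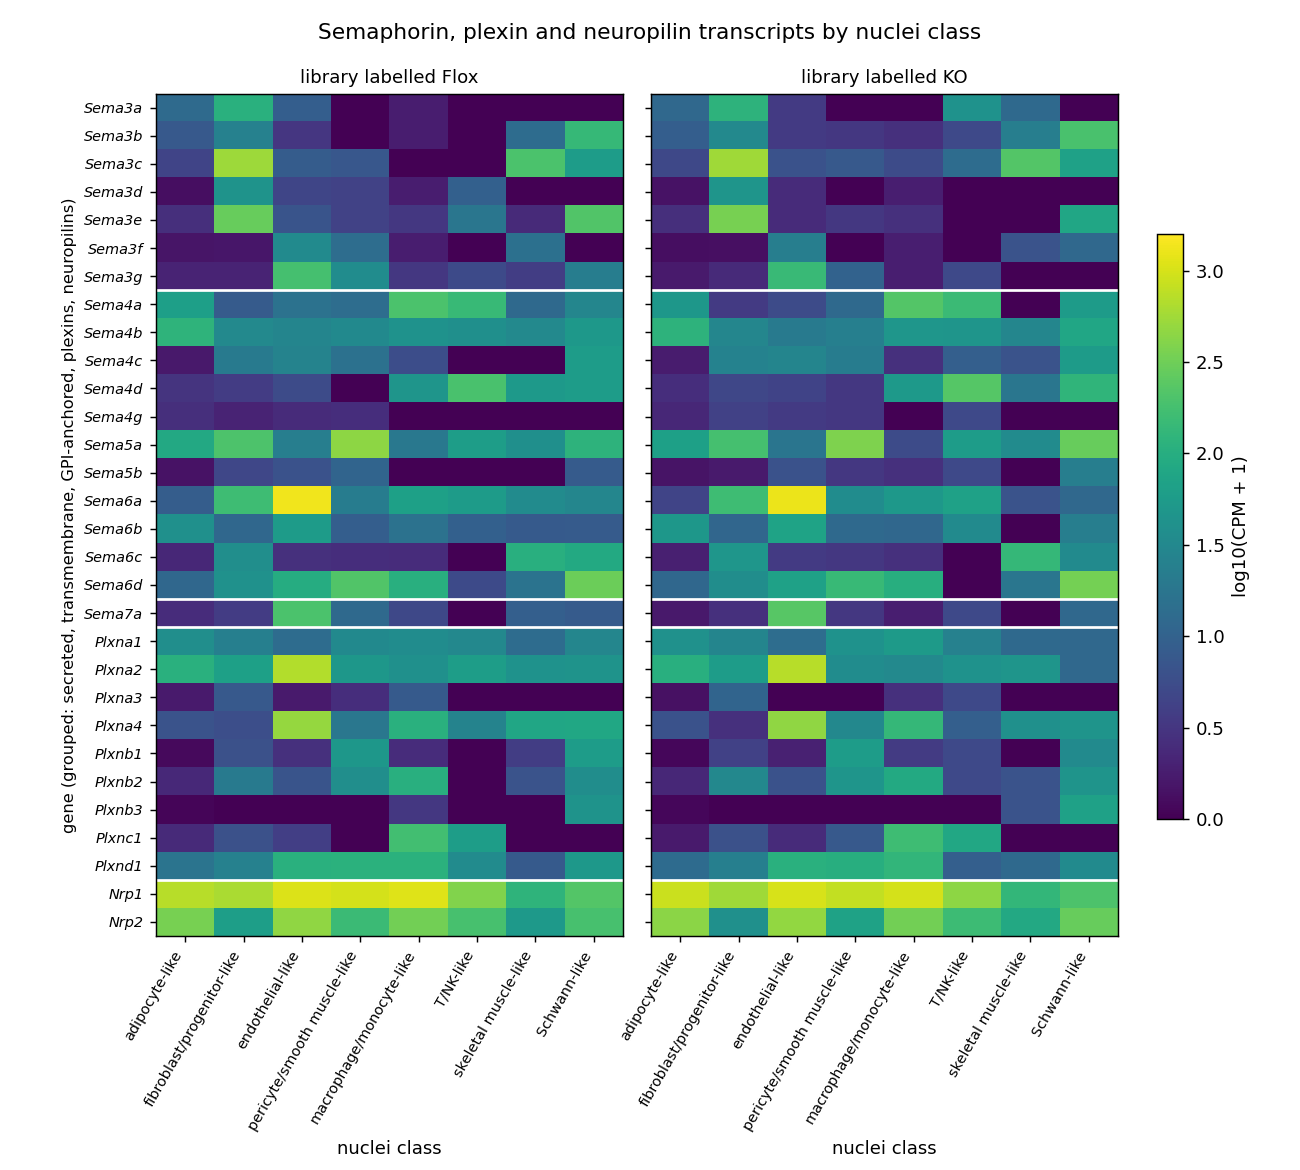
Each cell gives log10(CPM + 1) of 1 gene (rows, grouped by role) in 1 class of nuclei (columns), for the library labelled Flox on the left and KO on the right. The 4 secreted genes Sema3a, Sema3c, Sema3d and Sema3e are brightest in the fibroblast/progenitor-like column, Sema6a, Plxna2 and Plxna4 in the endothelial-like column, and Nrp1 is bright in 5 of the columns.

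Among the secreted semaphorins, the fibroblast/progenitor-like nuclei had the highest levels of Sema3a, Sema3c, Sema3d and Sema3e. Sema3c, which guides vessel and neural crest development, stood there at 542 CPM (518 to 566) in Flox and 545 in KO. The next class for Sema3c was skeletal muscle-like, at 196 and 220 CPM, while adipocyte-like nuclei had 3.58 and 3.92. Sema3e, the ligand of Plxnd1, stood at 281 CPM (264.5 to 299) and 352 in fibroblast/progenitor-like nuclei and at 1.67 and 1.67 in adipocyte-like nuclei. Schwann-like nuclei had 215 CPM of Sema3e in Flox (30 UMIs) and 77.6 in KO (7 UMIs), and in Flox this interval (145 to 308) overlapped that of the leading class. Sema3a, a repellent of sympathetic axons, reached 108 and 115.5 CPM in the same nuclei (398 and 330 UMIs), while the far more numerous adipocyte-like nuclei held 336 and 322 UMIs at 11.9 and 10.98 CPM. Sema3d reached 42.9 and 45.5 CPM. All 4 genes were thus higher in this class than in adipocyte-like nuclei, which hold most of the RNA of the tissue.

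The 4 genes were not spread evenly over the fibroblast/progenitor-like nuclei. Subclustering gave a Dpp4 and Pi16 type (712 and 609 nuclei), known as an early interstitial progenitor, and a Smoc2 and Hmcn2 type (295 and 224 nuclei). A small subcluster led by the proliferation gene Top2a (73 and 39 nuclei) also had Dpp4 and Pi16 type markers, and 3 subclusters stayed unnamed. The larger Dpp4 and Pi16 subcluster had 1291 CPM of Sema3c in Flox and 1113 in KO, against 19.9 and 15.5 in the Smoc2 and Hmcn2 type. For Sema3e the values were 769 and 771 CPM against 7.24 and 15.5. The Top2a-led subcluster lay between, with 449 and 409 CPM of Sema3c and 116 and 144 of Sema3e. The larger one held 34.6% of the fibroblast/progenitor-like nuclei in Flox and 94.3% of their Sema3e UMIs, and in KO 42.9% of nuclei and 95.7% of UMIs. Sema3e in KO nuclei of the whole class was 1.25-fold (1.15 to 1.36) its Flox level, while within the larger Dpp4 and Pi16 subcluster the log2 ratio was 0.00. Sema3a followed with 173 and 204 CPM against 29.0 and 13.2, and Sema3d with 76.3 and 77.0 against 0 UMIs (at most 6.68 CPM) and 1 UMI (2.21 CPM). Sema3d was not particular to the Dpp4 and Pi16 type: the unnamed subcluster 3 (235 and 152 nuclei) had 98.9 CPM (35 UMIs) and 73.7 (21 UMIs), within the same intervals, with Sema3e at 5.65 and 10.5 CPM.

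Other genes were higher in the Smoc2 and Hmcn2 type. Its Nrp1 level was 717 CPM in Flox and 710.5 in KO, against 208 and 196 in the Dpp4 and Pi16 type. Sema6a, a transmembrane ligand of A-type plexins, stood at 282 and 313 CPM against 101 and 104. Sema6d was at 110 and 97.1 CPM against 14.2 (18 UMIs) and 20.04 (25 UMIs), and Sema5a at 277 and 267 against 147 and 126. For each of these 4 genes the 2 types had intervals apart in both libraries, and the unnamed subclusters differed again. Subcluster 3 had the highest Nrp1, at 1350 and 1175 CPM, beside its Sema3d, and subcluster 1 (616 and 333 nuclei) had Nrp1 at 868 and 804 CPM beside Sema3a at 124 and 79.6. Adipocyte marker RNA was higher in the Smoc2 and Hmcn2 type, at 4162 and 3462 summed CPM over 12 markers, against 2442 and 1997, and its part in the Nrp1 values was not tested.

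Sema3g and Sema3f were the endothelial secreted semaphorins. Sema3g, which endothelial cells release onto neighbouring perivascular cells, stood at 180 CPM (164 to 196) in endothelial-like nuclei of Flox and 145 in KO. After each nucleus was thinned to 1000 UMIs, 15.9% and 11.2% of endothelial-like nuclei had a Sema3g UMI, against 0.102% and 0.0646% of adipocyte-like nuclei, the class with the greater median depth (2761 and 3095 UMIs against 1280 and 1596). Without thinning the endothelial-like shares were 20.5% and 19.6%. Sema3f stood at 33.04 and 22.6 CPM, from 91 and 46 UMIs. In KO its interval overlapped that of Schwann-like nuclei, the next class (11.1 CPM).

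Endothelial subtypes differed in their secreted and anchored semaphorins. Arterial-like nuclei (238 and 129) had 464.5 CPM of Sema3g in Flox (405 to 530) and 382 in KO. Capillary-like nuclei (306 and 313) had 158 and 93.3 CPM, and large vessel-like nuclei (52 and 32) had 1 UMI in Flox and 0 in KO (at most 40.4 CPM). The order arterial, capillary, large vessel thus held in both libraries with intervals apart. Sema7a, whose GPI anchor can be shed and which also binds integrins, was at 298 and 321 CPM in arterial-like and 268 and 242 in capillary-like nuclei, whose intervals overlapped, and at 24.99 (3 UMIs) and 10.9 (1 UMI) in large vessel-like nuclei. Sema3f was highest in large vessel-like nuclei of Flox, with 133 CPM (76.2 to 216) against 40.7 in capillary-like and 33.8 in arterial-like nuclei, whose intervals overlapped. In KO its large vessel-like value of 65.7 CPM rested on 6 UMIs.

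Receptors of these ligands were also split between vessel subtypes. Nrp2, the neuropilin associated with veins and lymphatics, stood at 908 and 689.5 CPM in large vessel-like nuclei, 670.0 and 605 in capillary-like and 186 and 105 in arterial-like nuclei, and in KO the intervals of large vessel-like and capillary-like nuclei overlapped. Nrp1 was highest in capillary-like nuclei, at 1481 and 1191 CPM, then arterial-like (906 and 846) and large vessel-like nuclei (566 and 481.5). Plxna4 was higher in large vessel-like nuclei, at 966 and 854 CPM, than in capillary-like (604 and 535) or arterial-like nuclei (608 and 511). Plxna2 had the other order, with 977 and 875 CPM in capillary-like and 358 and 471 in large vessel-like nuclei. Both neuropilins and both plexins were thus detected in every named vessel subtype of both libraries, with Nrp2 in arterial-like nuclei of KO (31 UMIs) the lowest.

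**Figure D2:**
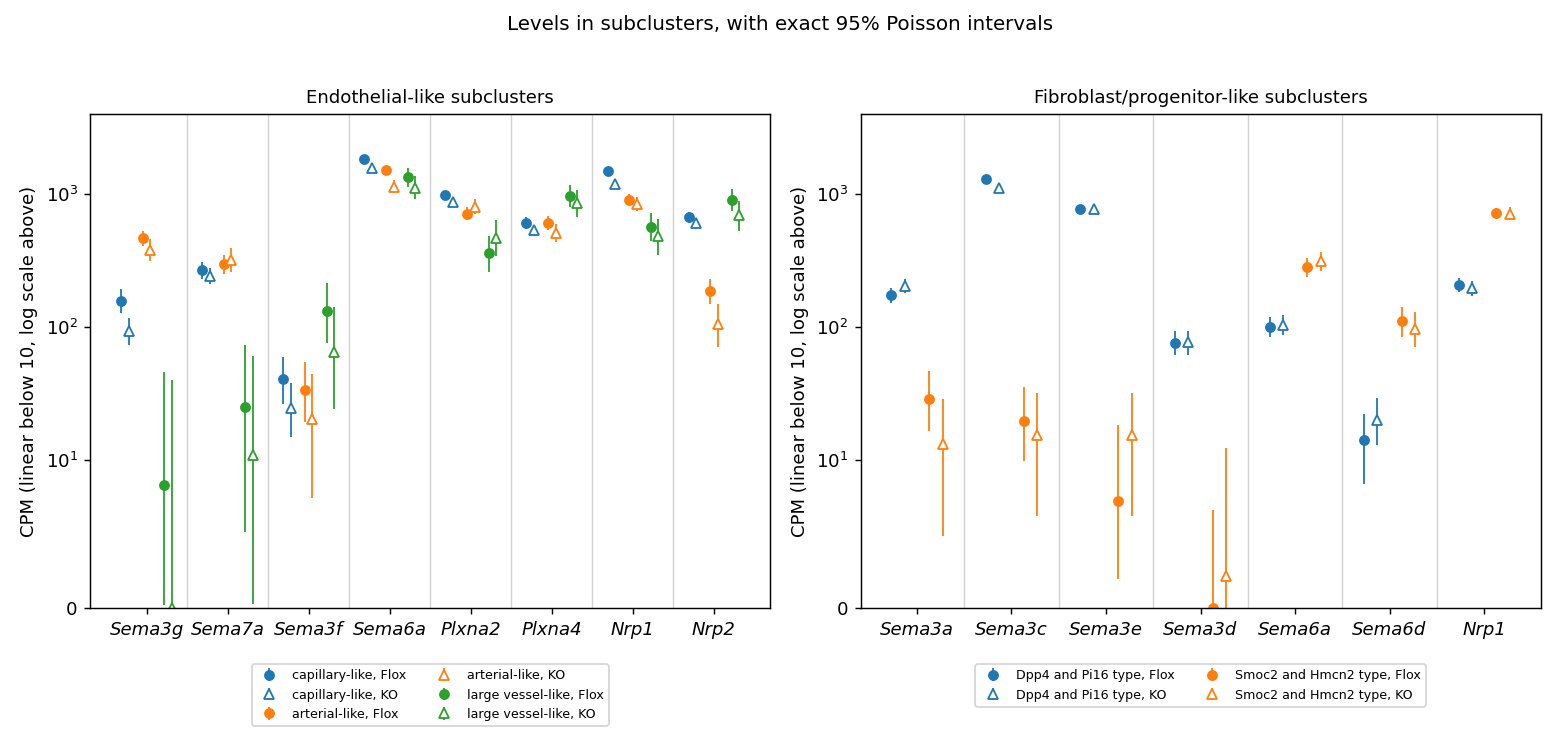
The vertical axis is CPM, linear below 10 and logarithmic above, with filled circles for Flox, open triangles for KO, colours for subclusters and bars for exact 95% Poisson intervals. Sema3g is highest in arterial-like and Nrp2 lowest in arterial-like nuclei, and Sema3c and Sema3e are near 1000 CPM in the Dpp4 and Pi16 type and near 10 in the Smoc2 and Hmcn2 type.

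The transmembrane semaphorins were spread over several classes. Sema6a stood at 1336 CPM (1294 to 1380) in endothelial-like nuclei of Flox and 1268 in KO, 8.46-fold and 8.02-fold above fibroblast/progenitor-like nuclei, the next class. A Sema6a UMI was found in 59.0% and 61.5% of thinned endothelial-like nuclei, against 0.671% and 0.271% of adipocyte-like nuclei (65.2% and 68.9% of endothelial-like nuclei without thinning). Sema5a, which carries thrombospondin repeats, led in pericyte/smooth muscle-like nuclei with 446 CPM (395 to 502) and 376, above 202 and 177 in fibroblast/progenitor-like nuclei. In KO, Schwann-like nuclei (288 CPM, 26 UMIs) came second for Sema5a, with overlapping intervals. Sema6d was led by Schwann-like nuclei at 301.5 CPM (42 UMIs) and 344 (31 UMIs), with 214 and 141 in pericyte/smooth muscle-like nuclei. In Flox these intervals overlapped. Sema6c, led by skeletal muscle-like nuclei, had 104 and 135 CPM there, and in Flox the interval overlapped that of Schwann-like nuclei (86.2 CPM).

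Of the Sema4 genes with enough UMIs to order the classes, Sema4a and Sema4d were led by immune and Sema4b by adipocyte-like nuclei. Sema4a, which acts in T cell priming, was at 196 and 218 CPM in macrophage/monocyte-like nuclei and at 141 and 153 in T/NK-like nuclei, with overlapping intervals. Sema4d, also called CD100, was at 188 CPM (44 UMIs) and 223 (54 UMIs) in T/NK-like nuclei, against 46.2 and 52.1 in macrophage/monocyte-like nuclei. The T/NK-like nuclei held 7 mast cell markers at 2106 and 908.5 summed CPM, beside 4705 and 5583 for 12 T/NK markers. All 5 mast cell markers tested there were at least 1.5-fold lower in KO, and their part in the T/NK-like values was not tested. Schwann-like nuclei came second for Sema4d, at 57.4 CPM (8 UMIs) and 122 (11 UMIs), and in KO the intervals overlapped. Sema4b was the only gene of the 30 that adipocyte-like nuclei led in both libraries, at 120 CPM (116 to 124) and 115. Schwann-like nuclei came second for Sema4b, at 50.3 and 77.6 CPM, and in KO the intervals overlapped. A Sema4b UMI was present in 11.3% and 10.8% of thinned adipocyte-like nuclei and in 2.49% and 1.09% of endothelial-like nuclei, the class with the lowest Sema4b level (27.2 and 19.1 CPM). Sema6b was at 39.2 and 48.4 CPM in adipocyte-like nuclei and, as its highest class, 56.3 and 70.2 in endothelial-like nuclei. Sema4g stayed under 5 CPM in every class of both libraries.

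Among the plexins, the A-type receptors Plxna2 and Plxna4 were endothelial. Plxna2 stood at 669 CPM (639 to 700) in endothelial-like nuclei of Flox and 720 in KO, and at 108 and 104 in adipocyte-like nuclei. Plxna4 stood at 497 and 472 CPM, with 107 and 135 in macrophage/monocyte-like nuclei and 5.64 and 5.49 in adipocyte-like nuclei. Plxnb2 and Plxnc1, receptors for Sema4 ligands and for Sema7a, were led by macrophage/monocyte-like nuclei, at 104 and 86.5 CPM and at 170 and 159 CPM. For Plxnb2 in KO the interval overlapped that of pericyte/smooth muscle-like nuclei (46.1 CPM). Plxnd1, the receptor of Sema3e, was shared by 3 classes within their intervals: pericyte/smooth muscle-like nuclei had 111 and 101.5 CPM, macrophage/monocyte-like nuclei 110 and 125, and endothelial-like nuclei 107 and 106. Plxna1 was low everywhere, between 11.1 and 54.8 CPM.

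The neuropilins were present in nearly all classes. Nrp1 ranged from 1113 CPM (1056 to 1173) in macrophage/monocyte-like nuclei, 1080 in endothelial-like and 992 in pericyte/smooth muscle-like nuclei of Flox to 120 in skeletal muscle-like nuclei. In KO the order was endothelial-like (1003), macrophage/monocyte-like (971), adipocyte-like (878) and pericyte/smooth muscle-like (803). The first and second class did not differ beyond their intervals in either library. Nrp2 was led by endothelial-like nuclei, at 466.5 CPM (441 to 493) and 475, followed by adipocyte-like nuclei at 350 and 436. After thinning, 46.2% and 50.8% of adipocyte-like nuclei had an Nrp1 UMI, against 6.67% and 8.47% of skeletal muscle-like nuclei, and 27.6% and 32.0% had an Nrp2 UMI, against 1.67% and 5.08%.

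Adipocyte-like nuclei formed 4 clusters, and the smallest, cluster 6 (385 and 272 nuclei), had a different set of semaphorin and neuropilin transcripts. Its leading genes were Slc7a10, Trhde, Retn, Agt and Scd1, and 9 of 12 adipocyte markers were at least 2-fold above the lower quartile of clusters. The 12 adipocyte markers summed to 22090 and 20940 CPM, the highest of the 4 clusters in both libraries. Sema3a stood there at 221.5 CPM (196 to 250) in Flox and 281 (250 to 315) in KO, against 0.205 to 3.14 CPM in clusters 0, 1 and 3. Cluster 6 made up 4.33% of adipocyte-like nuclei in Flox and held 78.6% of their Sema3a UMIs, and in KO 3.30% of nuclei held 90.4%. In Flox 108 of 385 nuclei had a Sema3a UMI and in KO 87 of 272, with at most 11 and 22 UMIs in a nucleus. After thinning these shares were 14.0% (10.6 to 18.0) and 20.5% (15.7 to 25.9), against at most 0.373% in the other clusters.

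Both neuropilins were lower in cluster 6 than in the other adipocyte-like clusters. Nrp2 stood at 57.9 CPM (45.0 to 73.3) and 44.4 in cluster 6, against 267 to 405 CPM in the other Flox clusters and 443 to 455 in KO. Nrp1 was at 379 and 373 CPM in cluster 6, against 683 to 778 and 869 to 983. Sema5a was higher in cluster 6, at 165 and 161 CPM, than in the others (71.8 to 93.4 and 51.4 to 70.2). Plxna2 was at 230 and 136 CPM, against 90.7 to 114 and 93.0 to 112. Markers of other cells also differed: 12 fibroblast/progenitor markers summed to 572 and 723 CPM in cluster 6, against 177 to 231 and 170 to 247, and 12 macrophage/monocyte markers to 602.5 and 718.5, against 280 to 356 and 233.5 to 278. The Sema3a level of cluster 6 was above that of the fibroblast/progenitor-like class (108 and 115.5 CPM) and of its Dpp4 and Pi16 type (173 and 204).

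**Figure D3:**
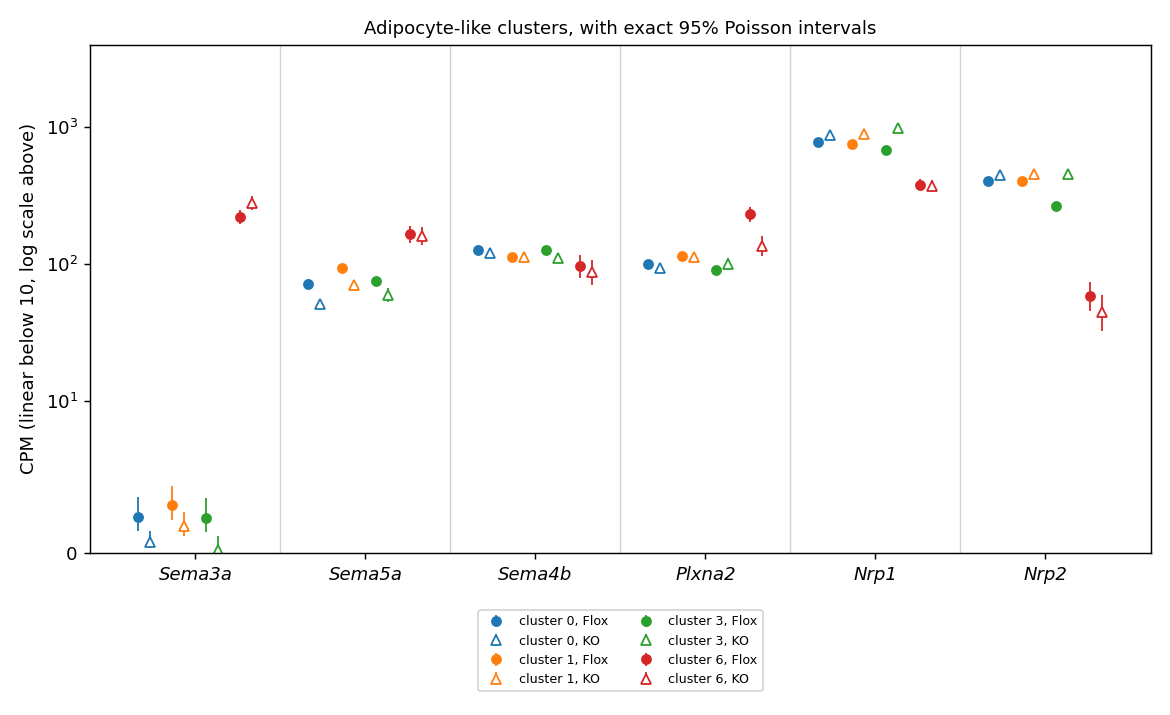
The vertical axis is CPM, linear below 10 and logarithmic above, for 6 genes in the 4 adipocyte-like clusters, with filled circles for Flox, open triangles for KO and bars for exact 95% Poisson intervals. Sema3a lies above 200 CPM in cluster 6 and below 4 in the other clusters, and Nrp2 lies below 60 in cluster 6 and above 260 in the others.

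Between the libraries, adipocyte-like nuclei had 23 of the 30 genes with at least 50 UMIs, the minimum for a ratio. None was at least 1.5-fold higher in KO, where 2.06% of all 12327 genes were, and 3 were at least 1.5-fold lower, where 8.23% of all genes were. The median log2 ratio was -0.06 over the 23 genes and -0.06 over all genes. The 3 lower genes were Sema7a (1.53 and 0.648 CPM, 43 and 19 UMIs, log2 ratio -1.22), Sema6a (7.70 and 3.51 CPM, -1.13) and Plxnc1 (1.38 and 0.716 CPM, 39 and 21 UMIs, -0.94, and -0.50 as a mean over nuclei). All 3 had their highest level in another class. In the same adipocyte-like nuclei 12 endothelial markers summed to 74.1 CPM in Flox and 43.3 in KO, 8 of them at least 1.5-fold lower (median log2 ratio -0.83). The 12 macrophage/monocyte markers summed to 324.5 and 274 CPM, 4 of the 10 tested being at least 1.5-fold lower, and no marker of either list was at 0. The part of this RNA in the 3 ratios was not tested.

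Smaller differences with narrow counting intervals were found for the abundant genes. Nrp1 rested on 20349 and 25742 UMIs, 722 CPM (712 to 732) in Flox and 878 (867 to 888) in KO, a ratio of 1.22 (1.19 to 1.24) and a log2 ratio of 0.28. Nrp2 had 350 and 436 CPM, a ratio of 1.25 (1.21 to 1.28). Sema6b had 39.2 and 48.4 CPM, a ratio of 1.24 (1.14 to 1.34). Lower in KO were Sema5a (84.9 and 64.7 CPM, 0.762, 0.717 to 0.810), Sema4a (62.3 and 48.9 CPM, 0.784, 0.731 to 0.842) and Plxnd1 (16.2 and 12.2 CPM, 0.751, 0.652 to 0.864). Plxna2 and Sema4b had ratios of 0.964 and 0.959, with intervals that held 1.0. These 6 differences were under 1.5-fold, and the spread between mice is not known.

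The neuropilin difference was not equal over the adipocyte-like clusters. Cluster 3, led by interferon-inducible Gbp genes, had 683 and 983 CPM of Nrp1 (log2 ratio 0.53) and 267 and 455 of Nrp2 (0.77). Clusters 0 and 1 had log2 ratios of 0.16 and 0.25 for Nrp1 and 0.13 and 0.17 for Nrp2. Cluster 6 had -0.03 for Nrp1 and -0.38 for Nrp2. Cluster 3 held 2396 nuclei in Flox and 1036 in KO, its median depth was 3010 and 4251 UMIs, and its 12 adipocyte markers summed to 15870 and 19510 CPM, so that it differed between the libraries in more than the neuropilins. Without cluster 6, Sema3a joined the lower genes with 72 and 31 UMIs (log2 ratio -1.27, against -0.12 in all adipocyte-like nuclei), and 4 of 22 genes were then at least 1.5-fold lower and 0 higher, where 8.09% and 2.22% of all genes were.

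In fibroblast/progenitor-like nuclei 19 genes were compared, and 1 was at least 1.5-fold higher and 1 lower, where 2.94% and 4.00% of all 9935 genes were. Plxnb2 stood at 19.5 and 30.1 CPM (72 and 86 UMIs, log2 ratio 0.62) and Nrp2 at 61.3 and 39.5 CPM (226 and 113 UMIs, -0.63), which was -0.08 with doublets kept. In the same nuclei 12 adipocyte markers summed to 3723 and 2963 CPM and 12 endothelial markers to 451 and 407, 3 of the 6 tested being at least 1.5-fold lower, and their part in the Nrp2 ratio was not tested. The median log2 ratio was 0.01, against -0.03 over all genes. The abundant ligand Sema3c had a ratio of 1.01 (0.941 to 1.08) and Sema3a 1.07 (0.921 to 1.24). For the class as a whole, a difference as large as 1.5-fold lies outside their counting intervals. The larger Dpp4 and Pi16 subcluster held 34.6% of these nuclei in Flox and 42.9% in KO, with 82.2% and 89.0% of the Sema3c UMIs. Within it Sema3c was lower in KO, as given above. Sema3a was higher in KO there and lower in subcluster 1, so the class ratios do not bound each subcluster. In the Smoc2 and Hmcn2 type Sema3a had too few UMIs for a ratio.

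In endothelial-like nuclei 16 genes were compared, with 0 at least 1.5-fold higher (2.76% of all 8998 genes) and 1 lower (9.89%). The lower gene was Sema4a, with 41 UMIs in Flox and 9 in KO (14.9 and 4.42 CPM, log2 ratio -1.69), and its log2 ratio was -0.24 with doublets kept. It had under 50 UMIs in total once unnamed subclusters were left out. Sema6a (0.949, 0.902 to 0.998), Plxna2 (1.08, 1.004 to 1.15) and Plxna4 (0.949, 0.873 to 1.03) had ratios near 1. Sema7a was at 193.5 and 235 CPM (1.22, 1.07 to 1.38, a log2 ratio of 0.28), which became -0.07 with named subclusters only, and Sema3g at 180 and 145 (0.809, 0.698 to 0.936). Endothelial-like nuclei also held 12 adipocyte markers at 13740 and 13170 summed CPM, against 18360 and 19710 in adipocyte-like nuclei. Fabp4, among the 12, was also on the list that named capillary-like nuclei, so the sum is not RNA of other cells only. Over the 12 markers the median log2 ratio was -0.33, with 2 at least 1.5-fold lower in KO and 0 higher. The 6 erythroid markers summed to 1258 and 6133 CPM. The part of RNA from other cells in the endothelial values was not tested.

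The endothelial values changed when only the named subclusters (596 and 474 nuclei) were used, a choice made after the values were seen. The largest subcluster left out (721 and 410 nuclei) was led by skeletal muscle genes such as Tnnt1 and Myh4. Of 12 genes, 3 were then at least 1.5-fold lower and 1 higher, where 6.43% and 4.63% of 6674 genes were. Sema3g stood at 261 and 157 CPM (322 and 189 UMIs, log2 ratio -0.73), Sema6d at 127 and 78.2 (-0.70), Sema3f at 47.1 and 26.6 (58 and 32 UMIs, -0.81) and Sema6b at 34.9 and 59.1 (43 and 71 UMIs, 0.75). Within capillary-like nuclei Sema3g had a log2 ratio of -0.76 and Sema6d -1.11, and within arterial-like nuclei -0.28 and -0.93. The large unnamed subcluster went the other way for Sema3g, with 126 and 174 CPM (0.46), and had -0.41 for Sema6d. Its endothelial markers summed to 16590 and 16040 CPM, near the 18480 and 17110 of capillary-like nuclei, and its median depth was 849 and 979 UMIs. It had 6 of 8 capillary markers at least 2-fold above the lower quartile of subclusters, as did capillary-like nuclei. It stayed unnamed because of its leading muscle genes. Its 12 skeletal muscle markers summed to 956 and 339 CPM, against 451 and 272 in capillary-like nuclei. In large vessel-like nuclei Sema6d went the other way, from 125 CPM (15 UMIs) to 295.5 (27 UMIs), too few UMIs for a ratio. The share of arterial-like nuclei among the named ones also differed, at 238 of 596 and 129 of 474.

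**Figure D4:**
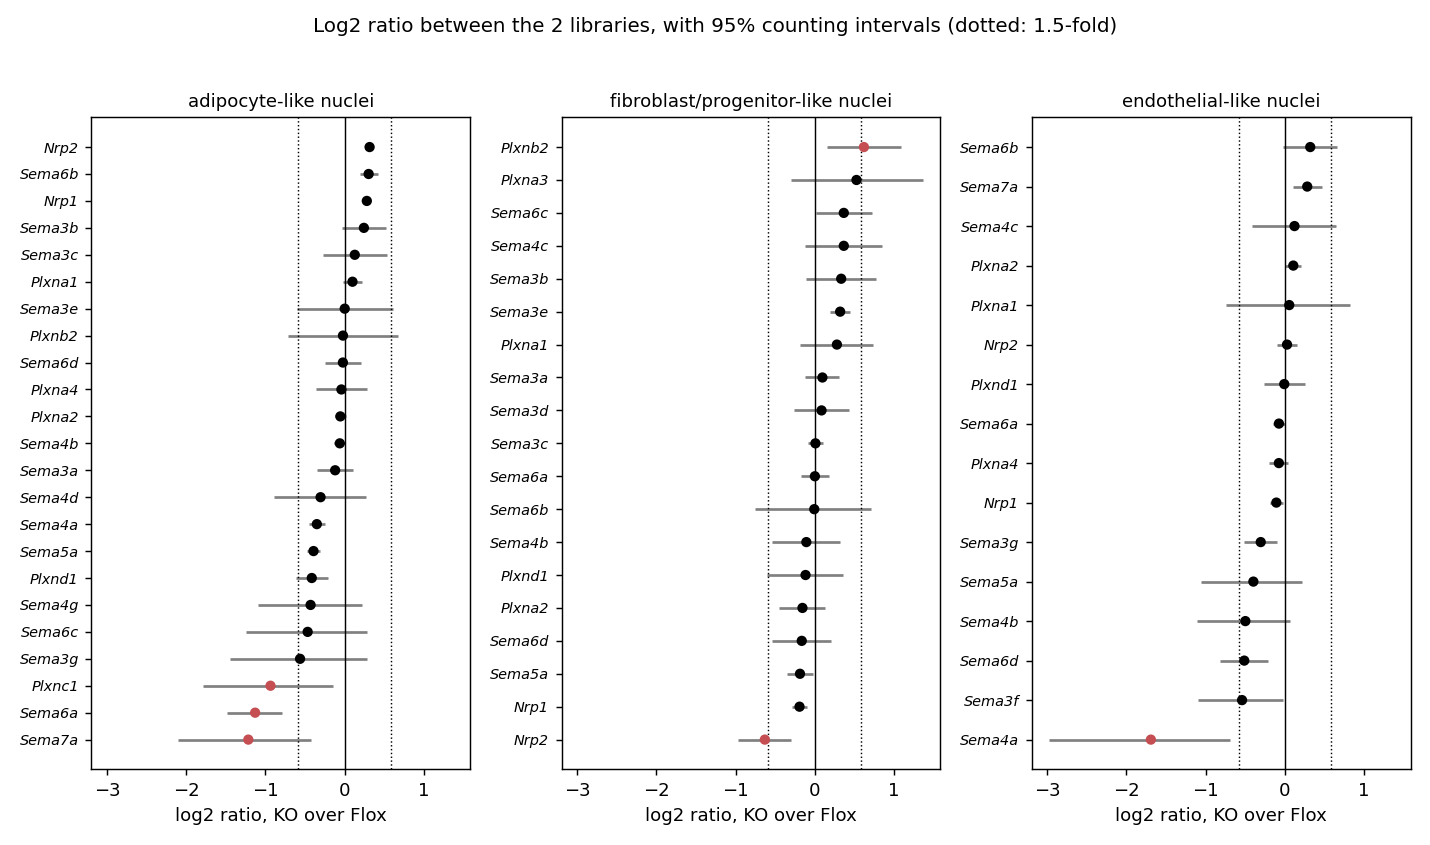
The horizontal axis is the log2 ratio of KO over Flox for each gene with at least 50 UMIs, in adipocyte-like, fibroblast/progenitor-like and endothelial-like nuclei, with 95% counting intervals as bars, 1.5-fold as dotted lines and genes past it in red. Most genes lie between the dotted lines, and Sema6a, Sema7a and Plxnc1 lie to the left in adipocyte-like nuclei.

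The remaining classes gave few genes with enough UMIs. In pericyte/smooth muscle-like nuclei 2 of 6 genes were at least 1.5-fold lower in KO and 0 higher, where 7.31% and 5.13% of all 4525 genes were: Nrp2 (150 and 69.2 CPM, 93 and 30 UMIs, log2 ratio -1.10) and Sema6d (214 and 141 CPM, -0.60). With doublets kept Nrp2 was at -0.28, and with nuclei thinned to 1000 UMIs Sema6d was at -0.10. The median was -0.27, against -0.01 over all genes. In these nuclei 12 macrophage/monocyte markers summed to 241.5 and 143 CPM, 12 endothelial markers to 467 and 517, and 12 adipocyte markers to 6930 and 6417. The part of RNA from other cells in the Nrp2 ratio was not tested. In macrophage/monocyte-like nuclei 1 of 13 genes was higher, Plxna1 (35.2 and 54.8 CPM, 45 and 62 UMIs, 0.63, and 0.41 with doublets kept), and 0 lower, where 3.97% and 6.72% of all 7207 genes were. In T/NK-like nuclei 0 of 4 genes were 1.5-fold apart, where 9.98% of all 2566 genes were higher and 9.74% lower.

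Partners and effectors of the pathway were taken from a list of 70 genes, which the files all held: coreceptors, neuropilin ligands, small GTPases with their regulators, cytoskeletal effectors and enzymes that cleave semaphorins. In adipocyte-like nuclei 0 of 58 tested genes were at least 1.5-fold higher in KO and 8 lower, with a median log2 ratio of -0.16, where 8.23% of all genes were lower. In fibroblast/progenitor-like nuclei 0 of 54 were higher and 1 lower (Ptk7, a coreceptor, -0.75), where 4.00% of all genes were. In endothelial-like nuclei 0 of 48 were higher and 3 lower, a smaller share than the 9.89% over all genes. The medians in these 2 classes were 0.03 and -0.03. Macrophage/monocyte-like nuclei had 4 of 47 higher and 3 lower, where 3.97% and 6.72% of all genes were. Pericyte/smooth muscle-like nuclei had 0 and 2 of 36, where 5.13% and 7.31% of all genes were. T/NK-like nuclei had 0 and 3 of 22, where 9.98% and 9.74% of all genes were.

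Of the cleaving enzymes, Pcsk5, a proprotein convertase that can process secreted precursors, was at least 1.5-fold lower in KO in 5 of the 6 classes compared. It stood at 1084 CPM in adipocyte-like nuclei of Flox and 681.5 in KO (30547 and 19989 UMIs, log2 ratio -0.67). Endothelial-like nuclei had 227 and 105 CPM (-1.12) and macrophage/monocyte-like nuclei 175 and 65.3 (-1.41). The ratio was -1.21 in T/NK-like and -0.85 in pericyte/smooth muscle-like nuclei. In fibroblast/progenitor-like nuclei it was -0.16 (572 and 511 CPM). Adipocyte markers were present in these other classes, and their part was not tested. Furin, the convertase best known for activating secreted semaphorins, stood at 38.0 and 38.3 CPM in adipocyte-like nuclei.

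Of the signalling genes, Mras, a Ras-family GTPase, was at 19.2 and 8.73 CPM in adipocyte-like nuclei (541 and 256 UMIs, log2 ratio -1.14) and at 25.4 and 10.8 in endothelial-like nuclei (-1.21). The tyrosine kinase Fyn (4.22 and 2.49 CPM, -0.76) and, among cytoskeletal genes, Msn, which links actin to the membrane (43.9 and 27.5 CPM, -0.68) were also lower in adipocyte-like nuclei. Tyrobp, the adaptor of the Plxna1 and Trem2 complex, had 52 and 30 UMIs there (-0.84). Dpysl3, an effector of Sema3a signalling, was lower in endothelial-like nuclei (43 and 16 UMIs, -0.96). Kdr, the main VEGF receptor of endothelium, was at 3.58 and 1.67 CPM in adipocyte-like nuclei (-1.09) and at 415 and 507 CPM in endothelial-like nuclei. Mras, Fyn, Msn, Tyrobp and Kdr each had a higher level in another class, Fyn with 599 and 590.5 CPM in T/NK-like nuclei. In adipocyte-like nuclei the median log2 ratio was -0.83 for endothelial and -0.51 for macrophage/monocyte markers. The part of RNA from other cells in these ratios was not tested. Furin, Vegfa and Flt1 are given for their roles and were chosen after their values were seen. Vegfa, which shares neuropilins with the secreted semaphorins, stood at 1591 and 1839 CPM in adipocyte-like nuclei (log2 ratio 0.21), the highest of the 8 classes, and Flt1, one of the markers that named the class, at 2183 and 2815 in endothelial-like nuclei (0.37).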

How the data were processed

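Single nuclei of brown adipose tissue were profiled with 10x Genomics 3' v3 chemistry, per the labels' protocols. The authors deposited raw UMI counts for each gene and nucleus. The file headers name Cell Ranger 5.0.0, and the submitters' processing notes name mm10. The Flox library held 46528077 UMIs and the KO library 43080725.

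Barcodes with under 200 genes or over 10% mitochondrial UMIs were removed (99 and 129), then the highest Scrublet scores (2060 and 1331). Leiden clusters (scanpy 1.11.5, resolution 0.5, 2000 variable genes without the 30 genes described, 30 components) numbered 15, and were named from 16 marker lists: at least 3 markers and most of a list had to be 2-fold above the lower quartile of clusters. Haemoglobin markers named no cluster. Endothelial, mural and fibroblast/progenitor-like nuclei were clustered again.

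CPM values are a gene's summed UMIs in 1 class of 1 library over all UMIs of that class. Ratios had 0.5 UMI added. Intervals were exact Poisson, binomial or Clopper-Pearson at 95%. Every gene with at least 50 UMIs in a class and 1.5-fold apart was named, and of the partner list up to 6 each way in adipocyte-like, fibroblast/progenitor-like and endothelial-like nuclei. Members and lists were chosen with earlier results of these data known. In a simulated adipocyte-like comparison of 12344 genes, the 1.5-fold rule recovered 197 of 197 genes set 3-fold apart and also took 92 of 12147 unchanged ones. The simulated counts held Poisson noise only, so the spread between mice or libraries and RNA from other cells are not covered. Genes set 3-fold apart were nearly bound to pass a 1.5-fold cut, so their recovery says little about smaller differences. Python 3.11.15, NumPy 2.4.6 and SciPy 1.17.1 were used. Alternatives in filters, clustering, scaling, minimum UMIs and thinning were computed, and 2 were added after the data were seen (named endothelial subclusters only, and adipocyte-like nuclei without cluster 6).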

Additional observations from a re-analysis of the deposited data

Results flagged for a closer look

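Mical2, a flavoprotein oxidase acting on actin, had a log2 ratio of 1.05 in macrophage/monocyte-like nuclei (33 and 61 UMIs) and -0.60 in adipocyte-like nuclei (784 and 538 UMIs), so the 2 classes went opposite ways between the libraries. Mras had 0.62 in macrophage/monocyte-like nuclei (49 and 67 UMIs), against -1.14 in adipocyte-like and -1.21 in endothelial-like nuclei. With 1 library per genotype these differences between classes were not tested.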

How the results depend on the processing

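Of the 9 gene ratios at least 1.5-fold apart that were followed through the alternatives, none changed direction. With named endothelial subclusters only, 3 smaller endothelial-like ratios did: Sema7a from 0.28 to -0.07, Sema4c from 0.12 to -0.41 and Nrp2 from 0.03 to -0.05. Sema6a and Sema7a in adipocyte-like nuclei and Plxnb2 in fibroblast/progenitor-like nuclei kept their side of 1.5-fold under every alternative that gave them a value. Counts of genes at least 1.5-fold apart were small and moved as follows. Apart from the named endothelial subclusters, given above, the share over all genes under each alternative is not set beside them. They therefore show only how the calls moved, and are not read as a result about the family. With doublets kept, 2 genes were higher in fibroblast/progenitor-like and 4 lower in endothelial-like nuclei, 2 were higher and 1 lower in pericyte/smooth muscle-like nuclei (median -0.072), 0 higher and 3 lower in macrophage/monocyte-like nuclei, and the T/NK-like median was 0.038. At 500 genes and 5% mitochondrial UMIs, 2 were higher in fibroblast/progenitor-like, 2 lower in endothelial-like, 1 higher and 1 lower in pericyte/smooth muscle-like and 0 higher in macrophage/monocyte-like nuclei. At resolution 0.3 and at 1.0, 0 were lower in endothelial-like nuclei, and at 1.0, 0 were higher in macrophage/monocyte-like nuclei. With median-of-ratios factors, and with totals free of mitochondrial and the 20 most abundant genes, 1 was lower in pericyte/smooth muscle-like nuclei. At a minimum of 20 UMIs, 5 were lower in adipocyte-like, 4 in fibroblast/progenitor-like, 2 in endothelial-like and 1 in macrophage/monocyte-like nuclei, and 2 were higher in pericyte/smooth muscle-like nuclei. With the mean CPM over nuclei, 2 were higher in fibroblast/progenitor-like and 1 lower in T/NK-like nuclei (median 0.291). Without the nucleus with most UMIs of each gene, 3 were lower in endothelial-like nuclei, and the T/NK-like median was 0.01. With nuclei thinned to 1000 UMIs, 1 was higher and 1 lower in adipocyte-like, 2 higher and 0 lower in fibroblast/progenitor-like, 3 lower in endothelial-like, and 0 higher and 1 lower in macrophage/monocyte-like nuclei, and the pericyte/smooth muscle-like median was -0.502. With named endothelial subclusters only, an alternative added after the data were seen, 1 was higher and 3 lower (median -0.183). The cause was not tested in any of these cases. Sema4a in endothelial-like nuclei ranged from -1.69 to -0.24, Nrp2 from -0.69 to -0.08 in fibroblast/progenitor-like and from -1.15 to -0.28 in pericyte/smooth muscle-like nuclei, Plxnc1 in adipocyte-like nuclei from -1.06 to -0.50, Plxna1 in macrophage/monocyte-like nuclei from 0.41 to 0.998 and Sema6d in pericyte/smooth muscle-like nuclei from -0.74 to -0.10. The leading classes were kept by 28 of 30 genes with doublets kept and by 29 with the family among the variable genes. No paired analysis was possible because each genotype has 1 library. Depth limits the rarer genes: a class of few nuclei, such as Schwann-like or T/NK-like, held too few UMIs of most of them for a ratio.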

Other observations

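Nuclei that no marker list named were left out of the comparisons. Cluster 12 (30 nuclei in Flox and 21 in KO, led by Hcn4, Tenm2 and Sfrp5) had 440 CPM of Sema3d in Flox (285 to 649, 25 UMIs) and 426 in KO (22 UMIs), against 42.9 and 45.5 CPM in fibroblast/progenitor-like nuclei. It also held Sema6a at 457.5 and 465 CPM and Sema5a at 264 and 252 CPM. Cluster 14 (9 and 10 nuclei), led by Pax7, the transcription factor of muscle satellite cells, had 1623 CPM of Sema6a in Flox (977 to 2534) and 1602 in KO, from 19 and 27 UMIs, against 33.8 and 5.64 CPM in skeletal muscle-like nuclei.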
